A study of Mus musculus with 12 samples.

Results

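The genes described here encode serine proteases that work at or near the cell surface, and their inhibitors, in the growing mouse mammary gland. They were taken as every probe whose platform gene symbol was St14, Spint1, Spint2, Prss8, Prss23, Tmprss2, Plat or Plau. All 8 genes were on the array, each with 1 probe and with values on all 12 arrays, among 12913 named genes and 17589 probes in all. Of the 8, 6 encode proteases and 2, Spint1 and Spint2, encode Kunitz-type inhibitors.

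Expression was measured on 12 arrays with 2 colours each. On 6 arrays the Cy5 channel held RNA of terminal end buds, the swollen growing tips of the ducts, and on the other 6 it held RNA of mature ducts. The Cy3 channel of every array held RNA of distal stroma, the part of the fat pad that holds no epithelium. All tissue was microdissected from mammary glands of 5 week old mice whose B-actin-GFP reporter, a green fluorescent protein under the beta-actin promoter, made the gland visible. The reporter is not restricted to one cell type, so each dissected piece can hold every cell of the structure and what adhered to it. The labels give no strain, and they do not say whether arrays came from separate animals or pools, so the spread behind each p-value is that of these arrays and may be technical.

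Matriptase, the product of St14, is a transmembrane serine protease of epithelial cells that activates other surface proteins, among them prostasin, the product of Prss8. The Kunitz inhibitors encoded by Spint1 and Spint2 bind such proteases and keep them in check, and Spint1 and Spint2 proteins were first known as inhibitors of the activator of hepatocyte growth factor. Tmprss2 encodes another transmembrane serine protease of epithelia, regulated by androgens in the prostate. Plau and Plat encode urokinase and tissue plasminogen activator, secreted proteases that turn plasminogen into plasmin, a protease that digests matrix. Prss23 encodes a secreted serine protease whose substrates are less well known.

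The values are the authors' normalized log ratios of epithelium over stroma, treated as log2. Sources used here do not state the base. If it were that of natural logarithms, sizes and folds would change, while signs, ranks and p-values would not. A ratio says how much more of a transcript the epithelium held than the stroma did, and not how abundant it was, so ratios of different genes do not rank their levels. A change was called where limma's moderated test, two-sided and adjusted by Benjamini-Hochberg over all 17589 probes, gave an adjusted p under 0.05. Since stroma was hybridised only as the reference, it is counted as 1 control sample. The labels do not say whether it was 1 pool, and if it was, comparisons with it leave out its spread. No dyes were swapped per the labels, so a dye bias of a probe stays in its ratio to stroma. In RNA of whole tissue, fewer cells of a type and less RNA per cell cannot be told apart.

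The arrays carried the epithelium that their labels name. Of 17 measured genes of luminal epithelium, 16 were higher than stroma in terminal end buds and 16 in ducts, and of 10 basal and myoepithelial genes 8 and 10 were higher. Of 9 adipocyte genes, 7 were lower than stroma in terminal end buds and 4 in ducts, and of 10 endothelial genes 10 and 6 were lower. Other cell types were present too. Of 12 fibroblast genes, 5 were higher than stroma and 1 lower in terminal end buds, and 7 and 0 in ducts. Of 6 mast cell genes, among them Kit, which is also on the luminal list, 1 was higher and 1 lower in terminal end buds, and 4 and 0 in ducts. A ratio above stroma thus does not by itself mark a transcript as epithelial. Array medians over all probes lay between 0.01 and 0.023. Pearson correlations across probes, which are not independent replicates, ran from 0.6 to 0.877 between arrays of the same structure and from 0.431 to 0.707 between structures. The arrays were split at a gap in the slide numbers, and this split rests on the numbers alone. Slides 190 to 193, with 2 arrays of each structure, are called the early run here. Slides 196 to 203, with 4 of each, are called the late run.

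The epithelial inhibitor Spint2 and the protease St14 stood far above stroma in both structures, and the other 6 genes lay much closer to it. In terminal end buds 7 of the 8 genes were above stroma and 1, Prss23, below, where 23.2% of all probes were higher and 20.4% lower. In ducts 6 of the 8 were higher and 0 lower, where 16.0% of all probes were higher and 12.2% lower. Between the structures, Spint2 and Plau were higher in the terminal end buds and Prss23 was higher in the ducts, where 8.32% of all probes were higher and 10.4% lower. The call of Spint2 passed in 11 of 23 alternative settings, and its sign turned in 1 of them, a common spread of the arrays (-0.19). The median over the 8 genes was 0.798 in terminal end buds and 0.809 in ducts on the log2 scale, against 0.0132 and 0.0133 over all named genes.

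**Figure D1:**
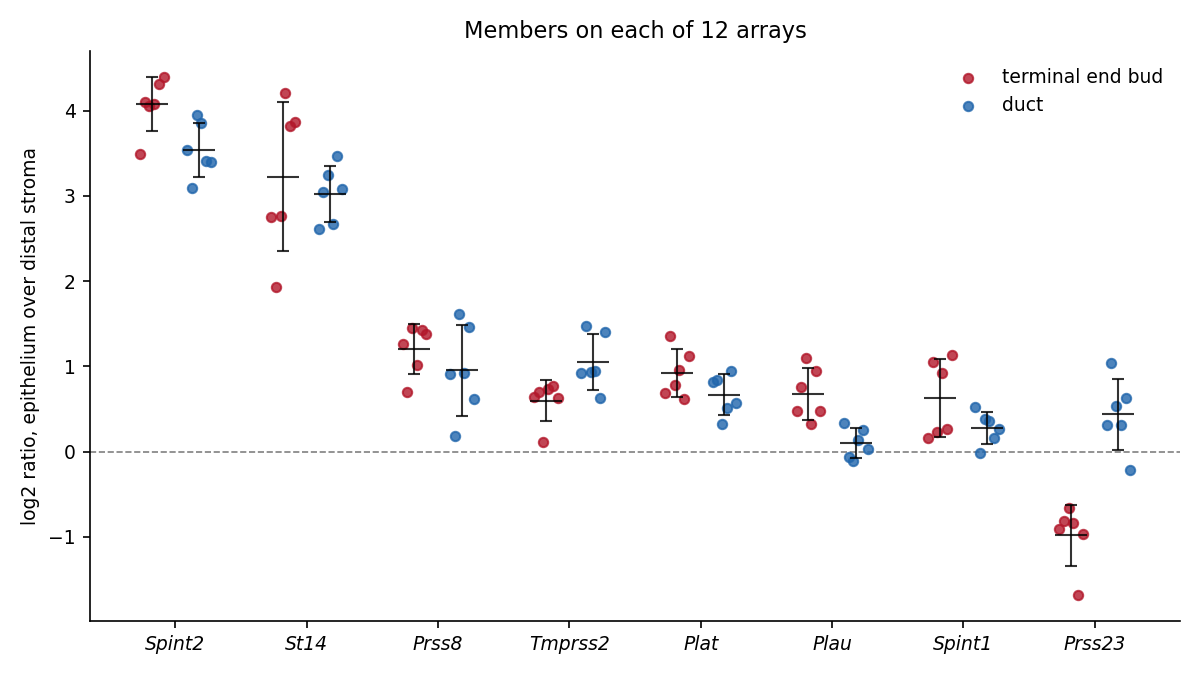
Log2 ratio of epithelium over distal stroma (vertical axis) of the 8 genes (horizontal axis) on each array, with 6 terminal end bud arrays in red and 6 duct arrays in blue. Black bars give the mean and SD of each group. Spint2 and St14 lie between 1.93 and 4.40 on every array, and Prss23 is the gene whose groups do not overlap.

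Spint2 and Spint1 are related inhibitors, and their ratios to stroma differed widely. Their promoters are shown because this pair carries the contrast among the inhibitors. The promoter table from RefSeq (GRCm38.p6) held 4 of the 8 genes, namely Spint1, Spint2, Prss23 and Tmprss2. Each window runs from 250 bases before the gene's start to 50 bases after it, in the direction of the gene.

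Spint1, chr2:119237110-119237409, plus strand: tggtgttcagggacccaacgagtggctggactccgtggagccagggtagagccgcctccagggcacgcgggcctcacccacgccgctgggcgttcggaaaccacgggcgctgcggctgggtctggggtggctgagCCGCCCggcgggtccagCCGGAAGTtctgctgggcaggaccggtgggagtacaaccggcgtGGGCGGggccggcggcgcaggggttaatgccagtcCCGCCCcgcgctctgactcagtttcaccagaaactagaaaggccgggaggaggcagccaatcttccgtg
Spint2, chr7:29281928-29282227, minus strand: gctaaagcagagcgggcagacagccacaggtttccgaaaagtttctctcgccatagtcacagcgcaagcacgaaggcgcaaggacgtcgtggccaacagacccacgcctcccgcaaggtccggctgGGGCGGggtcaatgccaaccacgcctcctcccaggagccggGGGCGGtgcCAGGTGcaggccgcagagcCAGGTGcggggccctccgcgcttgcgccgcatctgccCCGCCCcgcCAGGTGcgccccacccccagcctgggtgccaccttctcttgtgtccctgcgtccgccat

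Capitals mark matches to any of 5 motifs searched on both strands: GGGCGG, the core of Sp1 sites, CCGGAAGT of ETS factors, CACCTG of E-boxes, AACNGGTT of grainyhead factors and TATAAA. Each window held 3 matches to GGGCGG, a motif found in 35.7% of 32851 promoter windows of this length. The Spint1 window also held 1 CCGGAAGT (3.89% of windows), and the Spint2 window 3 CACCTG, printed as CAGGTG since they lie on the opposite strand (20.2% of windows). Neither held AACNGGTT or TATAAA, which 2.09% and 13.6% of windows held. No matches overlapped each other. The windows were similar in base composition, with 69.7% G or C for Spint1 and 69.3% for Spint2. The shares count windows with at least 1 match and were not matched for base composition, so they do not say how usual 3 matches are. These are matches of letters, and nothing in these arrays measures binding.

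Spint2 had the highest ratio to stroma of the 8 genes. Its log2 ratio ran from 3.49 to 4.40 with a median of 4.09 on the terminal end bud arrays, and from 3.09 to 3.94 with a median of 3.47 on the duct arrays. Every array was thus high, with some overlap between the structures. The mean was 4.07 (SE 0.12, adjusted p = 3.5e-11), or 16.8-fold over stroma, in terminal end buds and 3.54 (SE 0.12, adjusted p = 2.51e-10), or 11.6-fold, in ducts. That placed Spint2 at rank 9 from the top of the 12913 genes in terminal end buds and at rank 13 in ducts.

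Spint2 was higher in terminal end buds than in ducts by 0.54 (SE 0.17, adjusted p = 0.0353), or 1.45-fold, but this call and its direction depended on the processing. It reversed to -0.19 (adjusted p = 0.723) when the arrays were scaled to a common spread. As deposited, the SD over all probes was 0.535 to 0.635 on terminal end bud arrays and 0.380 to 0.484 on duct arrays. Terminal end bud arrays exceeded duct arrays in 33 of 36 pairs. Of 17 luminal markers, 4 were higher in the buds than in ducts and 0 lower, namely Krt19 (1.69), Krt8 (1.20), Cldn4 (0.63) and Cldn3, and array means of the list ran from 2.47 to 3.09 in buds and from 2.16 to 2.65 in ducts. Under a common spread 0 luminal markers were higher and 1 lower with limma. Of 10 basal and myoepithelial markers 5 were lower in the buds and 1 higher. Their part in the Spint2 difference was not tested. The call was lost when terminal end bud replicate 2, 4, 5 or 6 or duct replicate 1, 2, 5 or 6 was left out (differences of 0.45 to 0.54, adjusted p between 0.0598 and 0.0828). With neighbouring slides as a block its adjusted p was 0.0533, and with a trended, robust variance 0.171. The difference was 0.49 on the early slides (adjusted p = 0.344) and 0.56 on the late ones (adjusted p = 0.039).

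Spint1, the other inhibitor, lay only a little above stroma. On the terminal end bud arrays its log2 ratio ran from 0.16 to 1.14 with a median of 0.59, and on the duct arrays from -0.01 to 0.52 with a median of 0.31. The terminal end bud arrays split into a lower set, replicates 1, 3 and 5 at 0.16, 0.23 and 0.27, and a higher set, replicates 2, 4 and 6 at 1.05, 0.92 and 1.14. The lower set overlapped the duct arrays, and both sets hold an early slide. The mean was 0.63 (SE 0.13, adjusted p = 0.000925), or 1.54-fold over stroma, in terminal end buds, and on the 2 early slides alone 0.61 (adjusted p = 0.0991). In ducts the mean of 0.28 (SE 0.13, adjusted p = 0.123) did not pass, though it passed under quantile normalization (0.35, adjusted p = 0.0323) and when only the 6 duct arrays were fitted (adjusted p = 0.0199). The structures differed by 0.35 (95% interval -0.04 to 0.73, adjusted p = 0.222).

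St14, the gene of matriptase, was high in both structures, with more spread in terminal end buds. Its log2 ratio ran from 1.93 on replicate 2 to 4.21 on replicate 4 in terminal end buds, with a median of 3.29, and from 2.61 to 3.47 in ducts, with a median of 3.06. The duct values lay inside the range of the terminal end bud values. The mean was 3.22 (SE 0.23, adjusted p = 5.78e-08), or 9.34-fold over stroma, in terminal end buds and 3.02 (SE 0.23, adjusted p = 5.58e-07), or 8.11-fold, in ducts, which placed it at rank 19 and rank 22 from the top. The SD was 0.88 in terminal end buds and 0.33 in ducts (n = 6 each).

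No difference of St14 between the structures passed, at 0.20 (95% interval -0.504 to 0.91, adjusted p = 0.742). The interval leaves room for differences of up to 1.88-fold in favour of the buds. The sign of the difference turned under a common spread (-0.44) and within the slide runs, with -0.485 on the early slides (adjusted p = 0.427) and 0.55 on the late ones (adjusted p = 0.278). In terminal end buds the ratio to stroma was 2.34 on early and 3.66 on late slides. The duct values moved less, with 2.83 and 3.12.

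**Figure D2:**
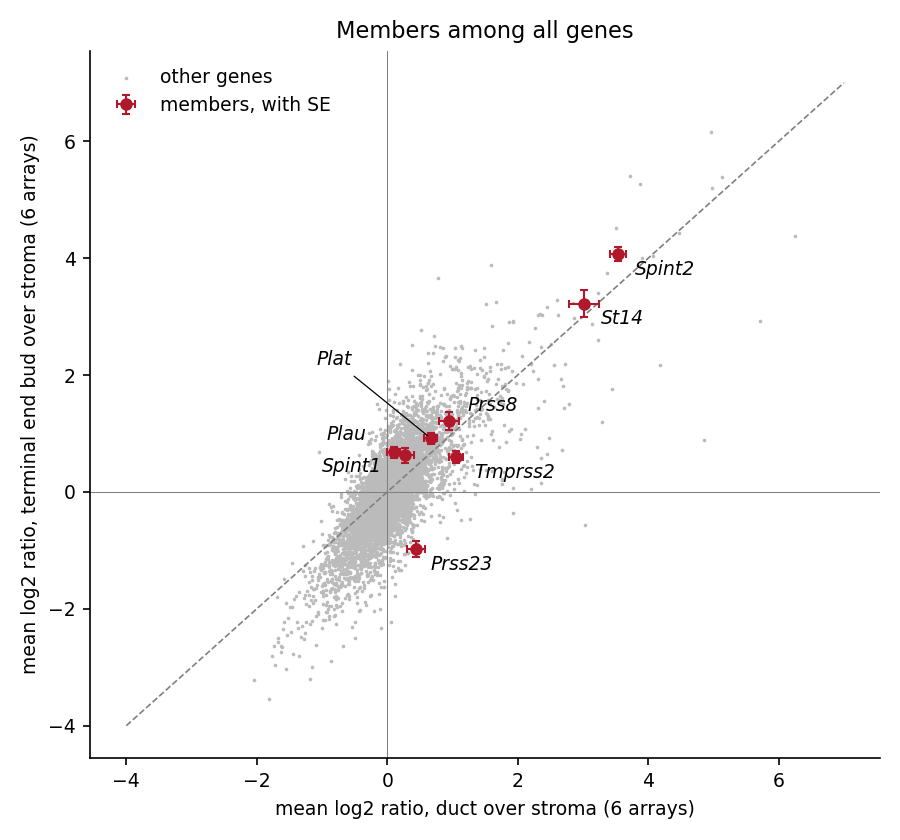
Mean log2 ratio over stroma in terminal end buds (vertical axis) against that in ducts (horizontal axis), for all named genes in grey and the 8 genes in red with the standard errors of the fit. The dashed line marks equal ratios. Spint2 (4.07 and 3.54) and St14 (3.22 and 3.02) stand near the upper end, and Prss23 (-0.98 and 0.44) lies furthest from the line among the 8.

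Prss8, the gene of prostasin, was above stroma on every array. Its log2 ratio ran from 0.70 to 1.45 with a median of 1.32 in terminal end buds and from 0.18 to 1.62 with a median of 0.91 in ducts. The duct values covered a wider range and enclosed the others. The mean was 1.21 (SE 0.15, adjusted p = 1.5e-05), or 2.31-fold over stroma, in terminal end buds and 0.95 (SE 0.15, adjusted p = 0.000347), or 1.93-fold, in ducts. On the 2 early duct slides it was 0.54 (adjusted p = 0.147), and on the late ones 1.15. The structures differed by 0.26 (95% interval -0.21 to 0.72, adjusted p = 0.490), and the sign turned under quantile normalization (-0.05).

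Tmprss2 was also above stroma on every array, and its ratios leaned towards the ducts. It ran from 0.11 to 0.77 with a median of 0.67 in terminal end buds and from 0.63 to 1.47 with a median of 0.94 in ducts. Terminal end bud replicate 3, at 0.11, lay far below the other 5 arrays of its group, which overlapped only the lowest duct array. The mean was 0.60 (SE 0.11, adjusted p = 0.000344), or 1.51-fold over stroma, in terminal end buds and 1.05 (SE 0.11, adjusted p = 6.94e-06), or 2.07-fold, in ducts. The difference of -0.45 (95% interval -0.78 to -0.13, adjusted p = 0.0512) just missed the threshold. It passed under quantile normalization (-0.73, adjusted p = 0.0053), under a common spread (-0.59, adjusted p = 0.0219), with the slide run as a term (adjusted p = 0.0494) and without duct replicate 5 (-0.54, adjusted p = 0.0221).

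The plasminogen activators Plau and Plat were both above stroma in terminal end buds, and Plau set the structures apart. Plau, the gene of urokinase, ran from 0.32 to 1.10 with a median of 0.61 in terminal end buds and from -0.11 to 0.33 with a median of 0.08 in ducts. Terminal end bud arrays were higher in 35 of 36 pairs, so the groups met only at their edges. The mean was 0.68 (SE 0.10, adjusted p = 3.66e-05), or 1.60-fold over stroma, in terminal end buds and 0.10 (SE 0.10, adjusted p = 0.491) in ducts. The difference was 0.58 (SE 0.13, adjusted p = 0.00735), or 1.49-fold. It lay between 0.496 and 0.65 with any 1 array left out, at 0.48 on the early slides alone (adjusted p = 0.205) and at 0.63 on the late ones (adjusted p = 0.0446).

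Plat, the gene of tissue plasminogen activator, was above stroma on all 12 arrays. It ran from 0.61 to 1.35 with a median of 0.87 in terminal end buds and from 0.33 to 0.94 with a median of 0.69 in ducts, with overlap between the groups. The mean was 0.92 (SE 0.10, adjusted p = 2.67e-06), or 1.89-fold over stroma, in terminal end buds and 0.67 (SE 0.10, adjusted p = 0.000154), or 1.59-fold, in ducts. The difference of 0.25 (95% interval -0.05 to 0.55, adjusted p = 0.262) did not pass, and its sign turned under quantile normalization (-0.02).

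Prss23 was the gene that differed most between the structures, and the groups did not overlap. It lay below stroma on all 6 terminal end bud arrays, from -1.68 to -0.67 with a median of -0.87. In ducts it lay above stroma on 5 of 6 arrays, from -0.21 to 1.04 with a median of 0.42. The mean was -0.98 (SE 0.14, adjusted p = 4.4e-05), or 0.507 of the stromal level, in terminal end buds. In ducts it was 0.44 (SE 0.14, adjusted p = 0.0315), or 1.35-fold over stroma. The duct call was lost without duct replicate 1, 2, 3, 4 or 5 (0.32 to 0.46, adjusted p between 0.0504 and 0.116), on the early slides alone (0.68, adjusted p = 0.0506) and on the late ones (0.32, adjusted p = 0.231).

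The difference between terminal end bud and duct in Prss23 was -1.42 (SE 0.20, adjusted p = 0.000229), or 0.374-fold, which placed it at rank 60 from the bottom of the 12913 genes. It was -1.54 on the early slides (adjusted p = 0.0251) and -1.36 on the late ones (adjusted p = 0.00643), and between -1.55 and -1.28 with any 1 array left out. Under quantile normalization it was -1.33. Markers of several other cell types were lower in the buds too. Of 10 endothelial genes, 9 were lower in the buds than in ducts and 0 higher, and the mean log2 ratio of that list per array ran from -1.33 to -0.92 in terminal end buds and from -0.54 to -0.15 in ducts. Of 9 adipocyte genes 5 were lower and 0 higher, with array means of -1.46 to -0.78 and of -0.505 to -0.36. The median differences of these lists were -0.887 for endothelial and -0.854 for adipocyte genes. Under quantile normalization 6 endothelial and 1 adipocyte genes were lower, with medians of -0.592 and -0.481. On the early slides alone, where fewer arrays remain, 2 and 1 were lower, with medians of -0.554 and -0.31. On the late slides alone 10 and 6 were lower, with medians of -1.08 and -1.01. Under a common spread 8 and 3 were lower, with medians of -0.726 and -0.655. Prss23 was called in 23 of 23 alternative settings. Of 10 basal and myoepithelial genes 5 were lower in the buds, led by Myh11 (-2.16) and Cnn1 (-1.78), and 1 was higher, Actg2 (1.94). Trp63 (0.12), Krt5 (0.02), Krt17 (-0.39) and Acta2 (-0.64) did not pass. Array means of this list were 1.17 to 1.71 in terminal end buds and 1.70 to 2.35 in ducts. Of 6 mast cell genes 2 were lower and 0 higher, and of 8 macrophage and blood genes 1 and 0. Of 12 fibroblast genes 2 were higher in the buds and 3 lower, with array means of 0.01 to 0.73 and of 0.22 to 1.16. Their part in the difference was not tested.

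**Figure D3:**
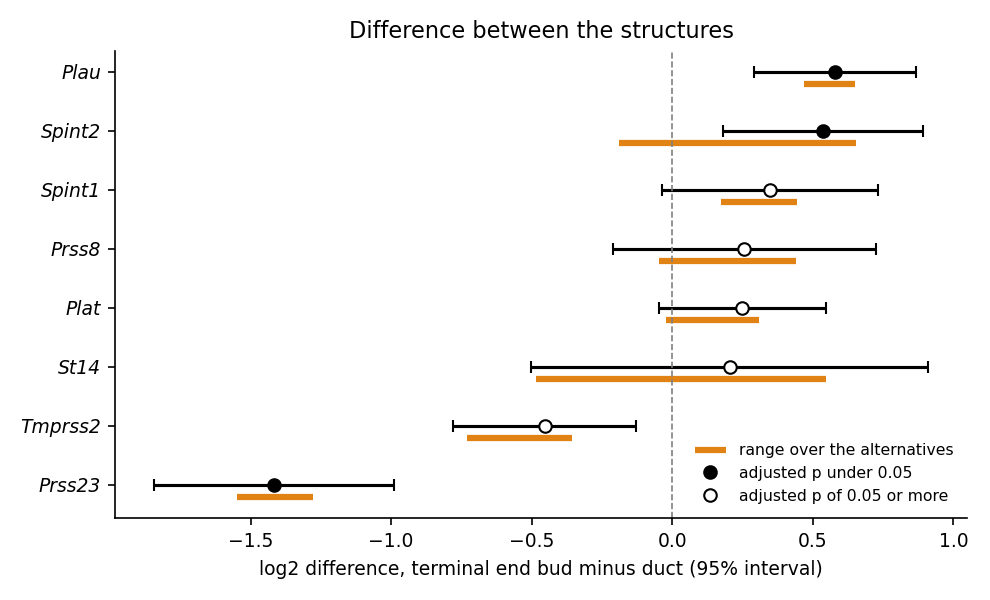
Log2 difference of terminal end bud minus duct (horizontal axis) for the 8 genes, with 95% intervals of the fit in black. Filled points passed an adjusted p of 0.05, and orange bars span the values under the other processing settings and with arrays left out. Prss23 (-1.42) and Plau (0.58) stay on one side of 0 throughout, while the bar of Spint2 reaches -0.19.

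Within an array, the ratio of a protease can be set against the ratio of an inhibitor, which compares their enrichment over stroma and not their amounts. St14 exceeded Spint1 on all 12 arrays, by 2.60 ± 0.93 (SD, n = 6) in terminal end buds and 2.74 ± 0.46 (SD, n = 6) in ducts on the log2 scale. Against Spint2, St14 stood at -0.85 ± 0.79 (SD, n = 6) in terminal end buds and -0.52 ± 0.497 (SD, n = 6) in ducts. The lowest of these, -2.17, came from terminal end bud replicate 2, the array with the lowest St14. St14 lay above Spint2 on terminal end bud replicate 4 (0.131) and on duct replicate 5 (0.065). By group means, the enrichment of St14 was nearer to that of Spint2 than to that of Spint1.

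On average Prss8 exceeded Spint1 by 0.58 ± 0.67 (SD, n = 6) in terminal end buds and by 0.67 ± 0.48 (SD, n = 6) in ducts. On terminal end bud replicate 2 it lay below Spint1 (-0.35). Prss8 lay below Spint2 on all 12 arrays, at -2.87 ± 0.41 (SD, n = 6) and -2.59 ± 0.39 (SD, n = 6). Plau minus Plat was -0.24 ± 0.47 (SD, n = 6) in terminal end buds, with values of both signs, and -0.57 ± 0.19 (SD, n = 6) in ducts, where all 6 arrays were below 0. For each of the 5 pairs the means of the structures lay closer together than the sum of their SDs.

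**Figure D4:**
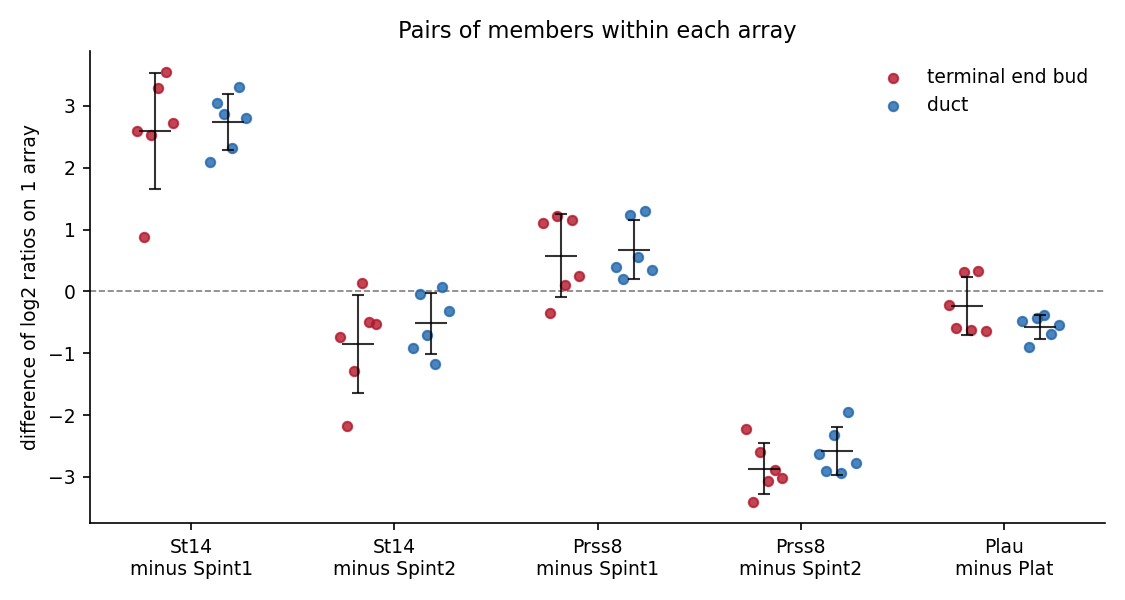
Difference of the log2 ratios of a pair of genes on the same array (vertical axis) for 5 pairs (horizontal axis), with 6 terminal end bud arrays in red and 6 duct arrays in blue, and the mean and SD in black. St14 minus Spint1 is above 0 on every array, and Prss8 minus Spint2 is below 0 on every array.

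The genes most like each strongly enriched member were found by the root mean square difference of the log2 ratio over the 12 arrays, among 12826 other genes with all values. For Spint2 they were Aldoc (0.353), a glycolytic enzyme, Gata3 (0.415), a luminal transcription factor, and Cldn3 (0.436), a tight junction protein. For St14 they were Ly6d (0.468), Rab25 (0.511), a Rab protein of epithelial vesicle traffic, and Urah (0.516). Few genes came this close, with 3 within 0.5 of Spint2 and 1 within 0.5 of St14. Since few genes have ratios this high, few can lie near, so these counts do not set the pattern of either gene apart. For Prss8 they were Tsc22d1 (0.300), Tes (0.324) and Col17a1 (0.327), a hemidesmosome collagen, and 95 genes lay within 0.5. For Tmprss2 they were Rpl22 (0.263), Naa60 (0.274) and Svil (0.283), and 198 genes lay within 0.5.

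The remaining 4 genes had means under 1 in size, so the naming rule gave them no neighbours. The genes nearest to Prss23 were looked up after its values were seen. They were Pmp22 (0.288), Lox (0.300) and Cd34 (0.313), with log2 ratios of -0.87, -0.68 and -1.06 in terminal end buds and 0.27, 0.38 and 0.25 in ducts. In all 87 genes lay within 0.5 of Prss23. Lox encodes a collagen cross-linking enzyme, and Cd34 a surface protein of vessels and progenitor cells.

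Related genes of pericellular proteolysis were read from 70 listed genes, of which 61 were measured, with 1 probe a gene. In terminal end buds 18 lay above stroma and 15 below it, beside 23.2% and 20.4% of all probes. In ducts 20 and 3 did, beside 16.0% and 12.2% of all probes. Between the structures 3 were higher in the buds and 13 in the ducts, beside 8.32% and 10.4% of all probes. The median difference was -0.08, against 0.001 over all named genes. On the early slides alone the lower ones numbered 5.

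Substrates, receptors and cofactors of these proteases went both ways. Of 16 measured, Anxa2 and Plaur were higher in terminal end buds than in ducts, as Plau was, and Met, Thbd and Scnn1b were lower. Of all probes 8.32% were higher in the buds and 10.4% lower. Plaur, the receptor that holds urokinase at the cell surface, was named after its values were seen. It ran from 0.347 to 1.20 in terminal end buds and from -0.07 to 0.31 in ducts, with no overlap, and differed by 0.54 (SE 0.12, adjusted p = 0.00657). Anxa2, an annexin that binds plasminogen and its activators, ran from 0.26 to 0.97 and from -0.21 to 0.49, and differed by 0.63 (SE 0.14, adjusted p = 0.00676). Both lost their call on the early slides alone, Plaur at 0.36 (adjusted p = 0.298) and Anxa2 at 0.62 (adjusted p = 0.228).

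Met, the receptor of hepatocyte growth factor, lay below stroma in terminal end buds and above it in ducts. It ran from -0.83 to -0.11 in terminal end buds and from 0.23 to 0.76 in ducts, with no overlap, and its difference was -0.82 (SE 0.13, adjusted p = 0.000503). Its ligand Hgf was at -0.52 (SE 0.36, adjusted p = 0.392). Thbd, the thrombin-binding protein of vessels, fell by 0.54 (SE 0.13, adjusted p = 0.00772), and under quantile normalization stood at -0.33 (adjusted p = 0.119). On the early slides alone it was at -0.51 (adjusted p = 0.194).

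Subunits of the epithelial sodium channel, which prostasin is known to activate, were above stroma in ducts. Scnn1a was higher than stroma by 1.55 (SE 0.22, adjusted p = 0.000117) in ducts and by 1.25 (SE 0.22, adjusted p = 0.000283) in terminal end buds. Scnn1b was higher by 0.86 (SE 0.19, adjusted p = 0.00318) in ducts and stood at -0.02 (adjusted p = 0.941) in terminal end buds. The difference in Scnn1b was -0.88 (SE 0.26, adjusted p = 0.0311). It was lost without terminal end bud replicate 1, 3 or 4 or duct replicate 1, 3 or 5 (-0.88 to -0.68, adjusted p between 0.0528 and 0.0716), on the early slides alone (adjusted p = 0.0794) and on the late ones (adjusted p = 0.140). On the early duct slides alone Scnn1a was at 0.74 (adjusted p = 0.0533). Scnn1g, named after its values were seen, was higher than stroma by 0.66 (SE 0.12, adjusted p = 0.000768) in ducts, and at 0.31 on the early slides alone (adjusted p = 0.172).

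Epcam and Cdcp1, surface proteins that matriptase is known to cleave, were above stroma in both structures. Epcam was higher than stroma by 4.43 (SE 0.22) in terminal end buds and 4.48 (SE 0.22) in ducts, and Cdcp1 by 1.21 (SE 0.18) and 1.31 (SE 0.18). Their differences between the structures, -0.05 (adjusted p = 0.936) and -0.10 (adjusted p = 0.839), did not pass. That of Epcam was 0.01 under quantile normalization and -0.93 under a common spread.

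Among the other 25 measured serine proteases, 1 was higher in the buds and 4 were lower there than in ducts, beside 8.32% and 10.4% of all probes. The higher one was Klk10, a secreted kallikrein, which ran from -0.52 to 2.55 in terminal end buds and from -0.87 to 0.37 in ducts, and differed by 1.67 (SE 0.41, adjusted p = 0.0108). On the late slides alone it was at 1.48 (adjusted p = 0.116). Dpp4, a membrane peptidase, ran from -2.19 to -1.35 and from -0.85 to 0.09, with no overlap, and differed by -1.52 (SE 0.18, adjusted p = 6.53e-05). Htra3, a secreted protease, ran from -1.99 to -0.4 and from -0.15 to 0.58, also with no overlap. It differed by -1.47 (SE 0.24, adjusted p = 0.000741).

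The remaining proteases that were lower in terminal end buds were Htra1 at -0.71 (SE 0.22, adjusted p = 0.0389) and Prss12 at -0.39 (SE 0.11, adjusted p = 0.0259), the latter named after its values were seen. Htra1 lost its call without terminal end bud replicate 3, 4, 5 or 6 or duct replicate 1, 2, 4 or 5 (adjusted p between 0.0625 and 0.0842), and Prss12 without terminal end bud replicate 6 (adjusted p = 0.0535) or duct replicate 5 (adjusted p = 0.0518). Both lost it on the early slides alone, with adjusted p of 0.191 and 0.323, and Prss12 also on the late ones (adjusted p = 0.0523) and under quantile normalization (adjusted p = 0.0502). Against stroma, the transmembrane protease Hpn was higher in both structures, by 0.75 (SE 0.08, adjusted p = 2.87e-06) in terminal end buds and 0.47 (SE 0.08, adjusted p = 0.000526) in ducts. On the early duct slides alone it was at 0.28 (adjusted p = 0.131). Tmprss13, another transmembrane protease, was higher by 1.20 (SE 0.14, adjusted p = 2.75e-05) in ducts and by 0.69 (SE 0.14, adjusted p = 0.00124) in terminal end buds, and on the 2 early bud slides alone at 0.42 (adjusted p = 0.0857).

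Of 20 measured serine protease inhibitors besides the Spint genes, 0 were higher in the buds and 6 were lower there than in ducts with limma. The shares of all probes were 8.32% and 10.4%. Serping1, the inhibitor of complement proteases, ran from -2.18 to -0.35 in terminal end buds and from -0.71 to 0.30 in ducts, and differed by -1.22 (SE 0.29, adjusted p = 0.00792). App, whose longer forms carry a Kunitz domain, ran from -0.32 to 0.004 and from 0.22 to 0.61, with no overlap, and differed by -0.57 (SE 0.08, adjusted p = 0.000374). On the early slides alone App was at -0.56 (adjusted p = 0.0798). Against stroma the inhibitors with the highest ratios were Slpi, at 3.17 (SE 0.23, adjusted p = 5.19e-08) in terminal end buds and 2.46 (SE 0.23, adjusted p = 3.09e-06) in ducts, and Wfdc2 at 2.16 (SE 0.34, adjusted p = 0.000103) and 1.27 (SE 0.34, adjusted p = 0.0117). Wfdc2 in ducts was at 1.14 on the late slides alone (adjusted p = 0.0559). Their differences between the structures, 0.72 for Slpi (adjusted p = 0.154) and 0.89 for Wfdc2 (adjusted p = 0.245), did not pass.

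**Figure D5:**
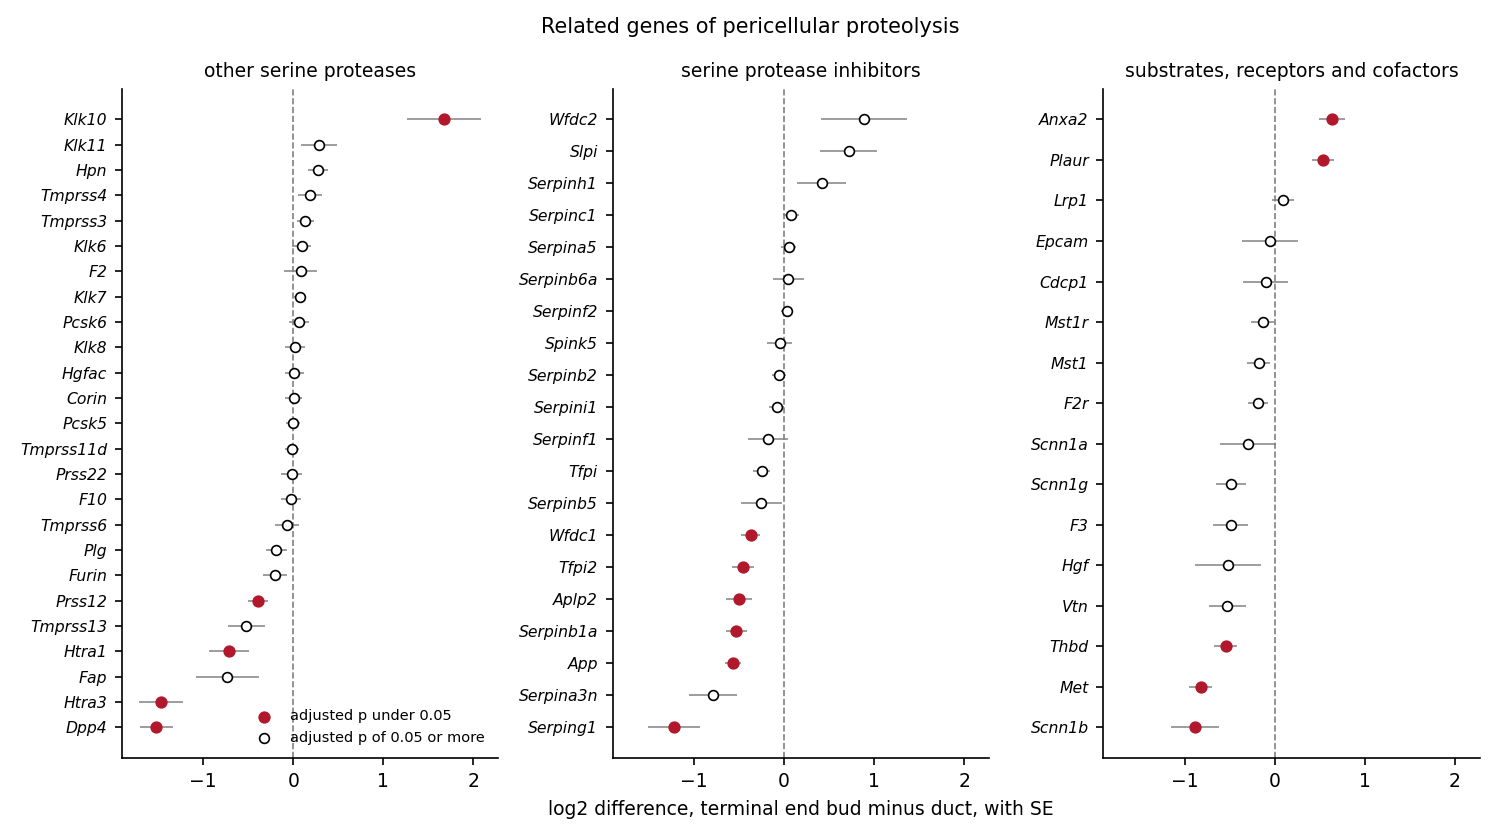
Log2 difference of terminal end bud minus duct with its standard error (horizontal axis) for the 61 measured related genes (vertical axis), in 3 panels by role. Filled points passed an adjusted p of 0.05. Klk10 (1.67), Anxa2 (0.63) and Plaur (0.54) are the filled points above 0, and Dpp4 (-1.52) and Htra3 (-1.47) lie lowest.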

How the data were processed

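Arrays with 2 colours compared terminal end buds (6 arrays) and mature ducts (6 arrays), in Cy5 per the labels, with distal stroma in Cy3. The authors deposited 1 table of normalized log ratios of epithelium to stroma, treated as log2. Sources used here state no scanner, background correction or normalization method. The direction follows the dyes per the labels. Values were used as deposited.

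Gene names came from the platform annotation, with 14136 probes of 1 symbol, 13 of several and 3440 unnamed here. A probe needed values on at least 4 arrays of each group, which left out 0 of 17589, and 129 lacked a value. Group means over the 12 arrays were fitted with limma 3.58.1 in R 4.3.3 (lmFit, eBayes). On simulated data with these spreads, tested with 200 changed probes, the fit for terminal end bud against duct recovered 53.7% of changes of 0.5, 91% of 1 and 98.5% of 2 (log2). It also called 8 unchanged probes. In the data 1463 probes were called higher and 1832 lower, far more than 200, so the recovery there can differ. A gene was read from 1 probe, that with most values and then the first. The number of arrays limits the precision.

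The 8 genes and the lists were chosen with earlier results of these data known. Named are all 8, up to 4 called genes of each related list and comparison with the largest change (not every one is printed), and the 3 genes nearest to each member with a mean of at least 1 in size. Genes outside this rule are said to be. Alternatives were centring, quantile normalization, a common spread, complete probes, trended robust variance, array weights, neighbouring slides as a block, slide run as a term or alone, each array left out, 6 arrays alone and probe means.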

Additional observations from a re-analysis of the deposited data

Results flagged for a closer look

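On 1 array each, Prss23 and Tmprss2 lay far from the rest of their group. Prss23 was at -1.68 on terminal end bud replicate 5, against -0.97 to -0.67 on the other 5, and Tmprss2 was at 0.11 on terminal end bud replicate 3. In all 26 sets of 6 arrays were examined in this way, and chance marks about 1 in 20.

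The ratio to stroma differed between terminal end bud and duct for 3 of the 8 genes by limma's test of the difference, namely Spint2 (0.54), Prss23 (-1.42) and Plau (0.58). Over all probes, 8.32% were called higher in the buds and 10.4% lower. Under the 23 alternatives Spint2 passed in 11 and reached -0.19 at its lowest, Plau passed in 22 and Prss23 in 23.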

How the results depend on the processing

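The count of members called in terminal end bud against duct, 3 in the fit of all arrays, was 1 on the early slides alone, where only 4 arrays remain. With each array left out it ran from 2 to 3, in terminal end bud against stroma it was 8 throughout, and in duct against stroma it ran from 5 to 6. Of all values of the 8 genes under the alternatives, 540 kept their side of the threshold, and 21 lost and 6 gained a call. In 1 a called difference changed sign, that of Spint2 between the structures under a common spread (-0.19). Sign changes where neither fit passed, as for St14, Prss8 and Plat between the structures, are among the 540. Htra1 in terminal end bud against stroma, at -0.02 without a call, was at 0.56 on the early slides alone (adjusted p = 0.0198). Related genes higher in ducts than in stroma numbered 12 on early and 13 on late slides alone against 20, and lower ones 1 on early slides and 5 under quantile normalization against 3. Those below stroma in terminal end buds numbered 6 on early slides against 15, and those below the ducts 5 against 13. The causes were not tested. The labels give no replicate numbers shared by the groups. Neighbouring slides, each pair of which holds 1 array of each structure, were used as a block instead, which among the members ended only the call of Spint2 between the structures (adjusted p = 0.0533). Signal over background is unknown, so which ratios are limited by dim spots cannot be seen.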
